A study of Mus musculus with 12 samples.

Results

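Fibroblast growth factor (FGF) signalling was followed through 8 genes, namely the ligands Fgf1, Fgf2 and Fgf9, the receptors Fgfr1, Fgfr2 and Fgfr3, and the inhibitors Spry2 and Spry4. They were taken by gene symbol from both deposited expression tables, and all 8 of the 8 genes were found among the 25124 genes listed in each. FGF ligands bind receptor tyrosine kinases together with heparan sulfate on the cell surface, and the active receptor recruits adaptors that start the Ras and MAP kinase cascade. Sprouty proteins are made in answer to that cascade and restrain it, so that ligand, receptor and inhibitor form a feedback loop. In the retina FGF2 is known as a survival factor for photoreceptors and ganglion cells whose expression changes with injury, FGF9 and FGF1 act in development and in neurons, and receptors are found on Muller glia, neurons and the pigment epithelium.

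The libraries were poly(A) RNA-seq of whole retinas of wild-type C57BL/6J mice, 12 libraries in 6 groups of 2. The 4 single-IOP groups came from a single elevation of the intraocular pressure (IOP) of one eye to 30 mmHg for 1 h, with retinas collected 2 days later. These were 3mo IOP and 3mo control retinas from 3-month-old mice, and 18mo IOP and 18mo control retinas from 18-month-old mice. For the groups called 4xIOP and 4xIOP control, mice received the first elevation at 3 months of age, with elevations repeated at intervals of 2 weeks to a total of 4, and retinas were taken 2 days after the last. Every control retina was the untreated eye of an animal whose other eye was treated, so controls shared the anesthesia and the collection day with the treated eyes, and the 18mo and 3mo control groups both came from such animals. The labels number the libraries of a group 1 and 2, and the study calls them biological replicates. The labels do not name the animals, so the p-values measure the spread between these libraries.

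Depth lay between 39766239 and 59455064 mapped tags per library, as recovered from the values, and 44.18% to 71.52% of the tags lay in exons. Rod photoreceptor markers were abundant in every library (summed level of 9 genes between 4930 and 24561 FPKM), as a retina should show, and none of these markers was at 0. FPKM is a read count scaled by transcript length and by library depth. The 3mo control replicate 2 library stood apart in how its values depended on transcript length. Short coding transcripts (below 1000 bases) had a median FPKM that exceeded that of long ones (from 4000 bases) 4.70-fold, against 1.89-fold in replicate 1, 3.26 and 2.99 in 3mo IOP, 1.20 to 1.36 in the 18mo libraries and 1.45 to 2.20 in the recurring series. Every 3mo library of the single-IOP series lay above every 18mo library in this ratio, so the dependence differed with age in untreated and in IOP eyes alike. Leaving out 1 library does not remove that difference, which all age comparisons carry. Values without 3mo control replicate 2 are given beside the results of the 8 genes whose side of a threshold its removal changed. In bulk retina, fewer cells of a type and less RNA per cell cannot be told apart.

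Sequence before the transcription start was looked up for the 8 genes in RefSeq (GRCm38.p6, the build of mm10), which held promoters for 5 of them. Of these 3 are shown. Fgf2 was taken because, among those of the 8 genes that were tested, it had the largest fitted change after single and recurring IOP. Spry2 and Fgf9 were taken as an inhibitor and a ligand that were above 2 FPKM in every library. The 250 bases before each start were searched on both strands for 6 motifs of factors linked to growth factor or injury signalling. These were the Egr motif GCGNGGGCG, the GC box GGGCGG, which can overlap it, the ETS motif CCGGAAGT, the AP-1 motif TGANTCA, the CRE core TGACG and the STAT motif TTCNNNGAA. They occur in 4.7%, 32.7%, 2.88%, 6.75%, 17.8% and 7.02% of all 32851 promoters of that length. The window of Fgf2 held 4 matches. These were an Egr motif and a GC box that overlap between 49 and 39 bases before the start, and CRE cores at 140 to 136 bases (on the other strand) and at 6 to 2 bases before it. Fgf9 held 1 match, a CRE core 64 to 60 bases before its start, and Spry2 held 0. The Fgf2 window lies inside an Fgf2 exon of GENCODE M21 (37348346 to 37349024), so only the 30 bases around the overlapping pair are printed. The Fgf9 window lies before the RefSeq start but inside an Fgf9 gene of GENCODE M21 that begins at 58070547. Capitals mark matched letters, the sequences read 5′ to 3′ on the strand of the gene, and a match describes letters and not binding.
Fgf2, chr3:37348595-37348624, plus strand: cggcgcgcgGGGCGGGGGCGcacggggccg
Fgf9, chr14:58072436-58072685, plus strand: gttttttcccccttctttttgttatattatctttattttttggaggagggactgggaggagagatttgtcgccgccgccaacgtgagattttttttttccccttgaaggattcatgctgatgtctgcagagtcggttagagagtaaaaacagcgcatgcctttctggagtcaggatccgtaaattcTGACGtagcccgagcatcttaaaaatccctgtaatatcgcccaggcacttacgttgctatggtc
Spry2, chr14:105896820-105897069, minus strand: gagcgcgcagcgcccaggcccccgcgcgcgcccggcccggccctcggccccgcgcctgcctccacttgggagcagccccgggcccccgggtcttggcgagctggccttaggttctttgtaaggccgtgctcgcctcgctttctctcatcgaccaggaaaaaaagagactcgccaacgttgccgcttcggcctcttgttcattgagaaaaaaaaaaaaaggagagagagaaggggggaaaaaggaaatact

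The levels of the 8 genes per kilobase had a clear order in untreated young retina. In the 3mo control group Spry2 was highest (9.83 ± 1.99 FPKM, SD, n = 2), followed by Fgf1 (7.18 ± 0.212), Fgf9 (4.73 ± 0.417), Fgfr1 (1.56 ± 0.588), Fgf2 (1.27 ± 0.125), Fgfr2 (0.428 ± 0.108), Spry4 (0.313 ± 0.139) and Fgfr3 (0.1 ± 0.0141). The libraries of Fgfr1 overlapped those of Fgf2, and those of Fgfr2 overlapped those of Spry4, while all other neighbours in this order were apart. In the 4xIOP control group the first 5 genes came in the same order, with Spry2, Fgf1 and Fgf9 overlapping from one to the next. In the 18mo control group Fgf1 had moved from the second to the fifth place (1.86 ± 0.410 FPKM), and Fgf9, Fgfr1 and Fgf2 overlapped at 4.47, 4.46 and 4.25 FPKM. Fgf2 was the highest of the 8 in both the 18mo IOP group (32.4 ± 27) and the 4xIOP group (23.0 ± 1.61), although in 18mo IOP its libraries overlapped those of Spry2.

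**Figure D1:**
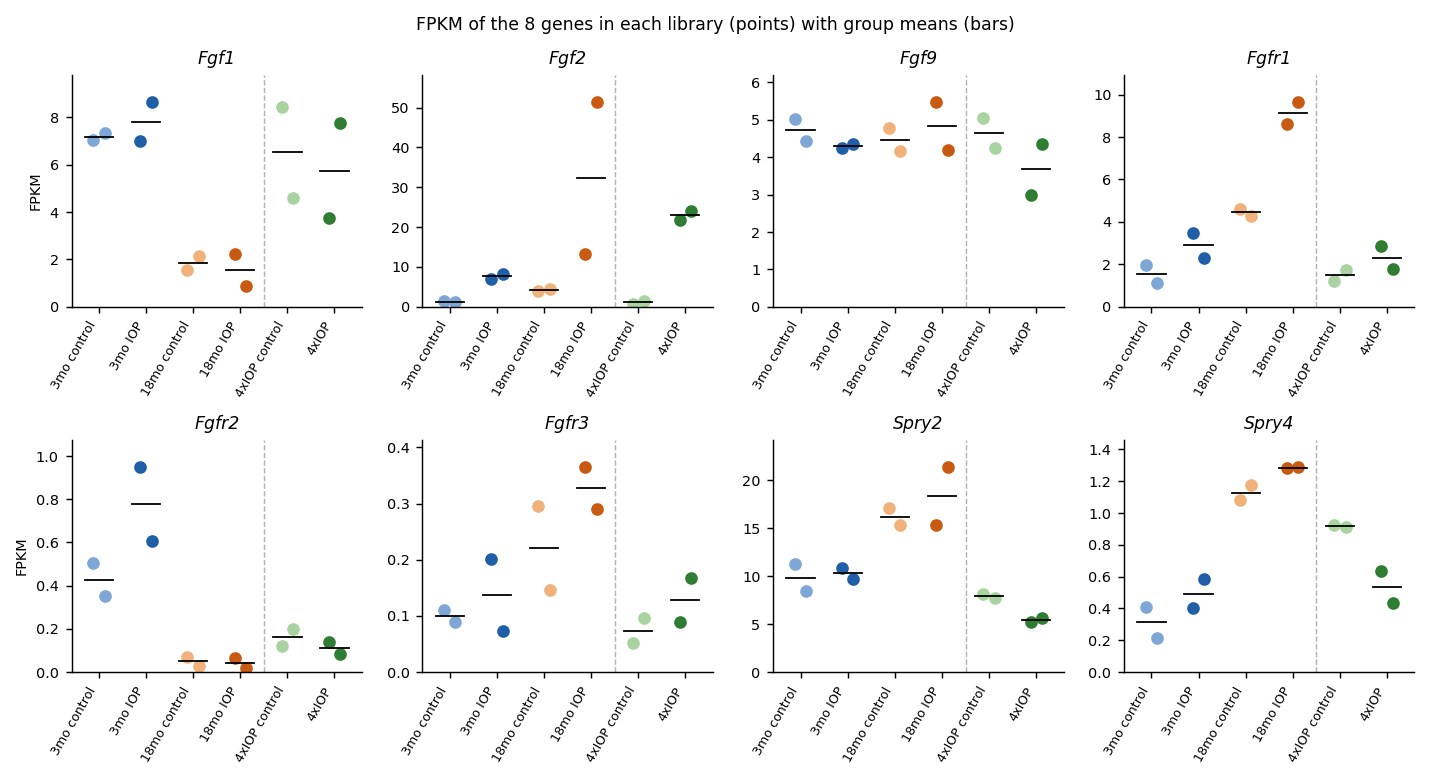
FPKM of each of the 8 genes in every library, with 1 panel per gene, 1 point per library, a bar at the mean of each group of 2, and a linear axis from 0 that differs between panels. The dashed line separates the single-IOP table from the recurring table, which were normalized separately. Fgf2 is lowest in 3mo control and 4xIOP control and highest in 1 of the 18mo IOP libraries at 51.5 FPKM, Fgf1 and Fgfr2 are low in all 4 18mo libraries, and Fgf9 stays between 2.99 and 5.48 FPKM throughout.

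Where the deposited tables place these genes in mm10 bears on what was counted. Fgf2 lies on chromosome 3 (37348653 to 37404830, plus strand), and the transcript kept there, NM_008006, is only 690 bases long, the shortest of the 8. Fgf1 (NM_010197) and Spry4 (NM_011898) lie on chromosome 18, and Fgf9 (NM_013518) and Spry2 (NM_011897) on chromosome 14. Fgfr1 on chromosome 8 (25518759 to 25575718, plus strand) was counted on NM_001079909 in the single-IOP table and on NM_010206 in the recurring table. The other 7 genes kept the same transcript in both. Fgfr2 (NM_001347638, chromosome 7, minus strand) and Fgfr3 (NM_001163216, chromosome 5, plus strand) were the receptors with the least signal. In the deposited tables Fgf1 overlaps Gm5820 and Fgfr1 overlaps Gm16159, both on the opposite strand, and the libraries were strand-specific and counted by strand. In GENCODE M21, Gm43439, a processed transcript on the same strand (37312519 to 37404866), spans the counted Fgf2 transcript, and counting by strand does not separate reads of the 2 where their exons coincide. On the opposite strand that annotation also places the antisense gene Fgf2os (37335332 to 37349740) and Gm42923 over Fgf2.

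Natural aging was asked about first, by comparing untreated 18-month-old with untreated 3-month-old retinas. Differences were fitted with limma on log2(FPKM + 0.5), on which scale all log2 fold changes stand, for the 13731 genes whose mean over the 8 libraries reached 0.5 FPKM. This added constant makes the change of a weak gene smaller than the ratio of its FPKM. To be called, a gene needed a p of 0.05 or less after Benjamini-Hochberg adjustment over all genes tested, together with a log2 fold change of 1 or more up or down. Of the 8 genes 6 passed the filter on low values, and Fgfr2 and Fgfr3 did not. Of the 6 genes tested, 4 were called, against 23.2% of all genes tested. At 18 months 3 were up-regulated (Fgfr1, Fgf2 and Spry4), where the share over all genes was 11.6%, and 1 was down-regulated (Fgf1), where it was also 11.6%. The genes were chosen with results of these data known, so these counts were not tested against those shares.

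Fgf1, the acidic FGF, which lacks a classical signal peptide and binds all FGF receptors, was down-regulated. It stood at 7.03 and 7.33 FPKM in young control retinas and at 1.57 and 2.15 in old ones. Both old libraries were below both young ones, and the mean was 3.87-fold lower at 18 months. The log2 fold change was -1.72 (SE 0.31, limma adjusted p = 0.00703), and it was called under every alternative run, between -2.14 and -1.53. Retinal ganglion cell markers moved with it. The summed level of the 10 markers was 338 to 638 FPKM in 3mo control and 39.1 to 86.6 in 18mo control, with none at 0. The 10 pigment epithelium markers summed to 217 to 222 FPKM in 3mo control and to 3.47 to 12.5 in 18mo control. In each of the 6 groups the library with more Fgf1 was also the one with the higher ganglion cell sum and with the higher sum of blood markers, a pattern looked for after the values were seen and found in 3 of the 72 pairs of a gene and a marker list, these 2 and Fgfr3 with the pigment epithelium sum. It held for 2.71% of 12991 genes tested in both tables for either list. The ganglion cell and blood sums stood in the same library order in each of the 6 groups, so the 2 matches of Fgf1 are not separate observations. Blood markers summed to 19.5 to 262 FPKM in 3mo control, with Slc4a1 at 0 in both libraries, and to 166 to 426 in 18mo control. The part of these cell types in the Fgf1 result was not tested.

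Fgf2, the basic FGF, was at 1.36 and 1.18 FPKM in the 3mo control libraries and at 4.03 and 4.46 in the 18mo control libraries. The old libraries were both above the young ones, 3.34-fold in the mean, with a log2 fold change of 1.42 (SE 0.50, limma adjusted p = 0.0485). These levels rested on 39 reads in each young library and 122 and 144 reads in the old ones. This call lay at the edge of the threshold. By voom it was lost (1.56, limma adjusted p = 0.261), as it was in limma with a pseudocount of 1 (1.21, adjusted p = 0.0746), without the filter (0.101) and with median-of-ratios scaling (1.29, 0.074). It was also lost in limma with 3mo control replicate 2 left out (1.35, adjusted p = 0.174), with 3mo control replicate 1 left out (1.49, 0.104), with either 3mo IOP library left out (0.0762 and 0.076) and with either 18mo control library left out (0.125 and 0.159). Removing the trend with transcript length gave 2.41 (limma adjusted p = 0.0102), more than 1.5 times the reported value.

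Fgfr1, the receptor with the most signal of the 3, was at 1.97 and 1.14 FPKM in 3mo control and at 4.62 and 4.30 in 18mo control. Both old libraries were higher, 2.87-fold in the mean, and the log2 fold change was 1.30 (SE 0.25, limma adjusted p = 0.00795). Leaving out 3mo control replicate 2 kept the call at 1.00 (limma adjusted p = 0.025), and with the trend of transcript length removed the change was 0.97 and under the fold threshold. Leaving out either 18mo control library ended the call, with limma adjusted p of 0.0511 and 0.0516.

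Fgfr2 and Fgfr3, tyrosine kinase receptors for several FGFs, were below the filter on low values. Fgfr2 was at 0.504 and 0.351 FPKM in 3mo control and at 0.071 and 0.027 in 18mo control, from 101 and 81 reads down to 15 and 6. Both old libraries were below both young ones. Without the filter on low values its log2 fold change was -0.75 (limma adjusted p = 0.0209), and in a fit of the recovered reads without the filter, chosen after seeing the data, it was -3.38 (limma voom adjusted p = 0.0125). In 5 of the 6 groups the library with more Fgfr2 had the higher sum of pigment epithelium markers, and the part of that tissue was not tested. Fgfr3 was at 0.110 and 0.090 FPKM in 3mo control and at 0.295 and 0.146 in 18mo control. Its groups did not overlap, and its limma adjusted p without the filter was 0.208. In 6 of the 6 groups the library with more Fgfr3 had the higher pigment epithelium sum, an order that 1.09% of genes shared.

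The inhibitors were higher at 18 months in every library. Spry4 was at 0.411 and 0.215 FPKM in 3mo control and at 1.08 and 1.18 in 18mo control, with a log2 fold change of 1.01 (SE 0.23, limma adjusted p = 0.0111). It was 1.61 with a pseudocount of 0.1 (limma adjusted p = 0.0121) and 1.75 by voom (0.0108), both called and over 1.5 times larger. The call was lost without 3mo control replicate 2 (0.84), without either 18mo control library (limma adjusted p = 0.059 and 0.0761), with median-of-ratios scaling (0.95), with a pseudocount of 1 (0.70) and with the length trend removed (0.69). Spry2 had 11.2 and 8.42 FPKM in 3mo control and 17.1 and 15.3 in 18mo control. Its log2 fold change of 0.70 (SE 0.22, limma adjusted p = 0.0313) passed the adjusted p and not the fold threshold, so it was not called. Without 3mo control replicate 2 Spry2 was at 0.50 (limma adjusted p = 0.119), without either 18mo control library its adjusted p was 0.154 and 0.102, and with median-of-ratios scaling it was 0.0705.

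Fgf9, a secreted ligand known from neurons, was at 5.03 and 4.44 FPKM in 3mo control and at 4.78 and 4.16 in 18mo control, which overlap. Its log2 fold change was -0.07 (SE 0.19, limma adjusted p = 0.762). The shares of all genes whose groups do not overlap, here and in the other comparisons, are over the genes that passed the filter on low values, while the counts over the 8 genes include Fgfr2 and Fgfr3, which did not. In all, 5 of the 8 genes (4 of the 6 tested) had both 18mo libraries above both 3mo libraries, where 45.7% of all genes tested did, and 2 (1 of the 6 tested) had both below, where 32.8% did. With median-of-ratios scaling, chosen for these counts after seeing the data, 5 were above (39.4% of all genes) and 3 below (38.2%), the third being Fgf9. The median log2 fold change of all genes tested was 0.16 with FPKM as deposited and 0.01 after median-of-ratios scaling, which moved the split of calls from 1595 higher and 1590 lower to 1056 and 1959. Under that scaling 2 of the 6 genes tested were called, Fgfr1 (1.17) and Fgf1 (-1.88).

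Age was also compared between the treated eyes, which share no library with the untreated eyes. They share the estimate of the spread and, since controls were the other eyes of treated animals, may come from the same mice. There 3 of the 6 genes tested were called, against 21.8% of all genes, with 2 higher (Fgf2 and Fgfr1, against 10.2%) and 1 lower (Fgf1, against 11.6%). Fgf1 had 6.99 and 8.66 FPKM in 3mo IOP and 2.22 and 0.870 in 18mo IOP (log2 fold change -2.10, SE 0.31, limma adjusted p = 0.00507). Fgfr1 had 3.48 and 2.31 FPKM in 3mo IOP and 8.59 and 9.66 in 18mo IOP (1.52, SE 0.25, limma adjusted p = 0.00603). Fgf2 had 7.07 and 8.28 FPKM in 3mo IOP and 13.3 and 51.5 in 18mo IOP (1.72, SE 0.50, limma adjusted p = 0.0282). No library of the older group overlapped the younger one in these 3 genes. Without 18mo IOP replicate 2, which held the value of 51.5, the change of Fgf2 was 0.76 and not called, and without replicate 1 it was 2.67. With the length trend removed it was 2.72 (limma adjusted p = 0.00819). Its call was also lost by voom (limma adjusted p = 0.0592), without the filter (0.0626), with only the groups compared (0.066) and without either 3mo IOP library (0.131 and 0.0967), and that of Fgfr1 without 3mo IOP replicate 2 (0.0539).

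In the same eyes Spry4 (log2 fold change 0.85, limma adjusted p = 0.0208), which was called in untreated eyes, and Spry2 (0.78, 0.0237) passed the adjusted p alone. Spry2 was called when 18mo IOP replicate 1 was left out (1.02, limma adjusted p = 0.0294). Spry4 was called with a pseudocount of 0.1 (1.24, limma adjusted p = 0.0312) and by voom (1.34, 0.0148). Fgf9 gave 0.14 (limma adjusted p = 0.553). Fgfr2 had 0.949 and 0.606 FPKM in 3mo IOP and 0.064 and 0.017 in 18mo IOP, a mean 19.2-fold lower. Its log2 fold change without the filter was -1.23 (limma adjusted p = 0.0103), and by voom without the filter -4.54 (0.00574). Again 5 of the 8 genes (4 of the 6 tested) were higher in both old libraries, where 43.2% of all genes were, and 2 (1 of the 6 tested) were lower, where 34.5% were. Pigment epithelium markers summed to 244 to 598 FPKM in 3mo IOP and 2.57 to 5.50 in 18mo IOP, and ganglion cell markers to 465 to 539 and 39.7 to 95.6.

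**Figure D2:**
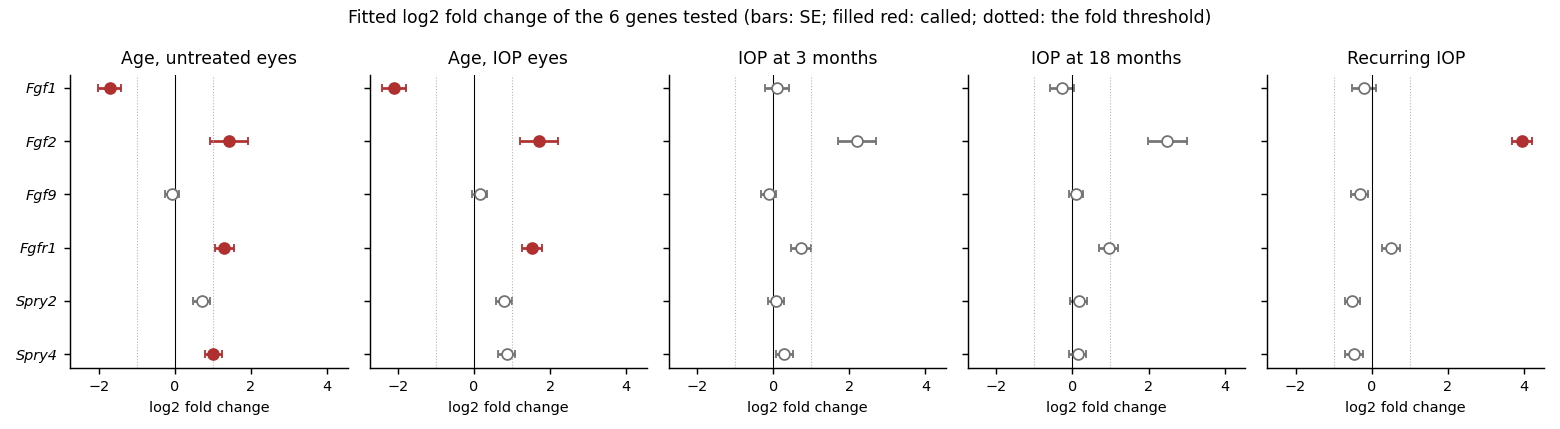
Fitted log2 fold change with its standard error for the 6 genes tested, with 1 panel per comparison, filled red points for called genes, open grey points for the others and dotted lines at the fold threshold of 1. Called are Fgf1, Fgf2, Fgfr1 and Spry4 with age in untreated eyes, Fgf1, Fgf2 and Fgfr1 with age in IOP eyes and Fgf2 after recurring IOP, while a single elevation gave 0 calls at either age.

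The response to a single mild elevation was asked for at each age. At 3 months 0 of the 6 genes tested were called by limma (2 had an unadjusted p under 0.05), against 0.575% of all genes, and the voom fit also called 0. Fgf2 was at 1.36 and 1.18 FPKM in untreated young eyes and at 7.07 and 8.28 after IOP. Both treated libraries lay far above both controls, 6.03-fold in the mean. Its log2 fold change of 2.20 (SE 0.50) had an unadjusted p of 0.00227 and a limma adjusted p of 0.133. The SE was shared with the 18mo groups, whose IOP libraries were far apart for this gene. Fitted on the 3mo groups alone the same change was called (limma adjusted p = 0.015), as it was with either 18mo IOP library left out (0.0057 and 0.0061).

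Fgfr1 had 1.97 and 1.14 FPKM in 3mo control and 3.48 and 2.31 in 3mo IOP, both higher, with a log2 fold change of 0.73 (SE 0.25, limma adjusted p = 0.39), which was 0.44 without 3mo control replicate 2. Fgfr2 was also higher in both treated libraries (0.949 and 0.606 against 0.504 and 0.351 FPKM, with a limma adjusted p of 0.408 without the filter). Fgf9 was the only gene of the set with both treated libraries below both controls, 4.23 and 4.36 against 5.03 and 4.44 FPKM, with -0.12 on the log2 scale (limma adjusted p = 0.99). Thus 3 of the 8 genes (2 of the 6 tested) were higher without overlap, where 28.6% of all genes tested were, and 1 was lower, where 3.95% were. With median-of-ratios scaling the same genes stood apart, 3 higher and 1 lower, but the shares over all genes were 14.9% and 17.1%. Fgf1 (0.11), Spry2 (0.08) and Spry4 (0.29) had overlapping groups and limma adjusted p of 0.999, 0.999 and 0.921, and with median-of-ratios scaling Fgf1 and Spry2 were at -0.08 and -0.11.

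At 18 months 0 of the 6 genes were called (2 with an unadjusted p under 0.05), against 0.124% of all genes, and again 0 by voom. Fgf2 had 4.03 and 4.46 FPKM in 18mo control and 13.3 and 51.5 in 18mo IOP, from 122 and 144 reads to 504 and 2111. Both treated libraries were higher, but they differed from each other by more than the control mean. The log2 fold change was 2.50 (SE 0.50, unadjusted p = 0.00105, limma adjusted p = 0.115). Without 18mo IOP replicate 1 it was 3.45 and called (limma adjusted p = 0.00137), and without replicate 2 it was 1.54 and not called (0.187), so the size of the change at this age depended on which library was kept. With 1 of these libraries left out the spread between them leaves the fit, the SE goes from 0.50 to 0.22, and the lone library is assumed to vary like those of the other groups, so the call without replicate 1 has no replicate check.

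Fgfr1 had 4.62 and 4.30 FPKM in 18mo control and 8.59 and 9.66 in 18mo IOP, a mean 2.05-fold higher with no overlap. Its log2 fold change was 0.96 (SE 0.25, unadjusted p = 0.00524, limma adjusted p = 0.196). Spry4 had 1.08 and 1.18 FPKM against 1.28 and 1.29 in 18mo IOP, also without overlap, and with 0.13 on the log2 scale (limma adjusted p = 0.999). Together 3 of the 8 genes were higher without overlap, where 36.5% of all genes tested were, and 0 were lower, where 9.89% were (21.8% and 19% with median-of-ratios scaling, for the same 3 and 0 genes). Spry2 (15.3 and 21.4 against 17.1 and 15.3 FPKM), Fgf9 (5.48 and 4.20 against 4.78 and 4.16) and Fgf1 (2.22 and 0.870 against 1.57 and 2.15) overlapped.

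Glial and immune marker sums were also higher in treated than in control retinas, apart from the Muller glia sum at 3 months, whose groups overlapped. The summed level of 5 astrocyte markers, among them Gfap, was 8.25 to 13.4 FPKM in 3mo control, 38.2 to 41.8 in 3mo IOP, 12 to 12.3 in 18mo control, 45.1 and 104.8 in 18mo IOP, 8.87 to 9.62 in 4xIOP control and 49.7 to 57.5 in 4xIOP. Gfap, which Muller glia also express when reactive, made up most of the sum in treated retinas, at 24.97 and 31.26 FPKM in 3mo IOP against 2.13 and 2.10 in its control, and at 31.4 and 87.5 in 18mo IOP against 4.87 and 4.39. The other 4 astrocyte markers overlapped at 3 months, with sums of 13.2 and 10.5 FPKM after IOP against 6.13 and 11.3. At 18 months they summed to 13.7 and 17.4 against 7.42 and 7.60, and after recurring IOP to 11.4 and 17.1 against 7.48 and 6.18. The higher of the 18mo IOP sums was in replicate 2, the library with the most Fgf2. The 10 Muller glia markers summed to 957 to 1416 FPKM in 3mo control, 1299 to 1931 in 3mo IOP, 2216 to 2600 in 18mo control and 4374 to 4803 in 18mo IOP. For 12 microglia and leukocyte markers the ranges were 16.1 to 26.3, 58.0 to 74.3, 63.5 to 72.3 and 98.9 to 194, the last with its higher value in replicate 1. Endothelial and pericyte markers were higher in every treated group as well, with 12 markers summing to 19.2 to 23.8 FPKM in 3mo control, 56.1 to 113 in 3mo IOP, 102 to 106 in 18mo control and 131 to 146 in 18mo IOP. These, the Muller glia and the microglia sums were thus higher with age too, in the libraries in which Fgfr1, Fgf2 and Spry4 were higher. None of the markers in these 4 lists was at 0 in a group. Lens markers summed to 46.9 to 70.9 FPKM in 3mo control, 92.5 to 94.8 in 3mo IOP, 39.1 to 48.2 in 18mo control, and 84.3 and 183 in 18mo IOP, the last again in replicate 2. Within the groups, the library with more Fgf2 had the higher sum in 2 of 6 groups for astrocyte, microglia and lens markers alike, in 3 for Muller glia and in 4 for endothelial and pericyte markers. The part of these cells and tissues in the Fgf2, Fgfr1 and Spry4 values was not tested.

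Whether the IOP response differed between the ages was tested by the interaction. It called 0 of the 6 genes (0 with an unadjusted p under 0.05), against 0% of all genes, of which 218 had an unadjusted p under 0.05, and voom gave 0 as well. For Fgf2 the response at 18 months was larger by 0.29 on the log2 scale (SE 0.71, limma adjusted p = 1), and it was 1.25 without 18mo IOP replicate 1 and -0.66 without replicate 2.

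Recurring IOP was compared with its own contralateral controls in a fit of its own 4 libraries. There 1 of the 6 genes tested was called, against 6.15% of all 13718 genes tested there. It was Fgf2, and it was up-regulated, as 5.45% of all genes were. Fgf2 had 0.620 and 1.58 FPKM in 4xIOP control and 21.9 and 24.1 in 4xIOP, from 17 and 46 reads to 847 and 704. The groups were far apart and the mean was 20.96-fold higher, or 14.6-fold without 4xIOP control replicate 1 and 37.1-fold without 4xIOP control replicate 2. The log2 fold change was 3.94 (SE 0.26, limma adjusted p = 7.5e-07), and it stayed called under every alternative run, between 3.50 and 4.39. In the same libraries the microglia and leukocyte sum was 8.88 to 9.40 FPKM in 4xIOP control and 109 to 120 in 4xIOP, and the rod photoreceptor sum was 9887 to 10348 and 4930 to 7416. Their part in the Fgf2 result was not tested. Since this table was normalized apart from the other, the size was not tested against that of the single elevation. Side by side, the log2 fold changes of Fgf2 were 2.20 at 3 months, 2.50 at 18 months and 3.94 after recurring IOP.

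**Figure D3:**
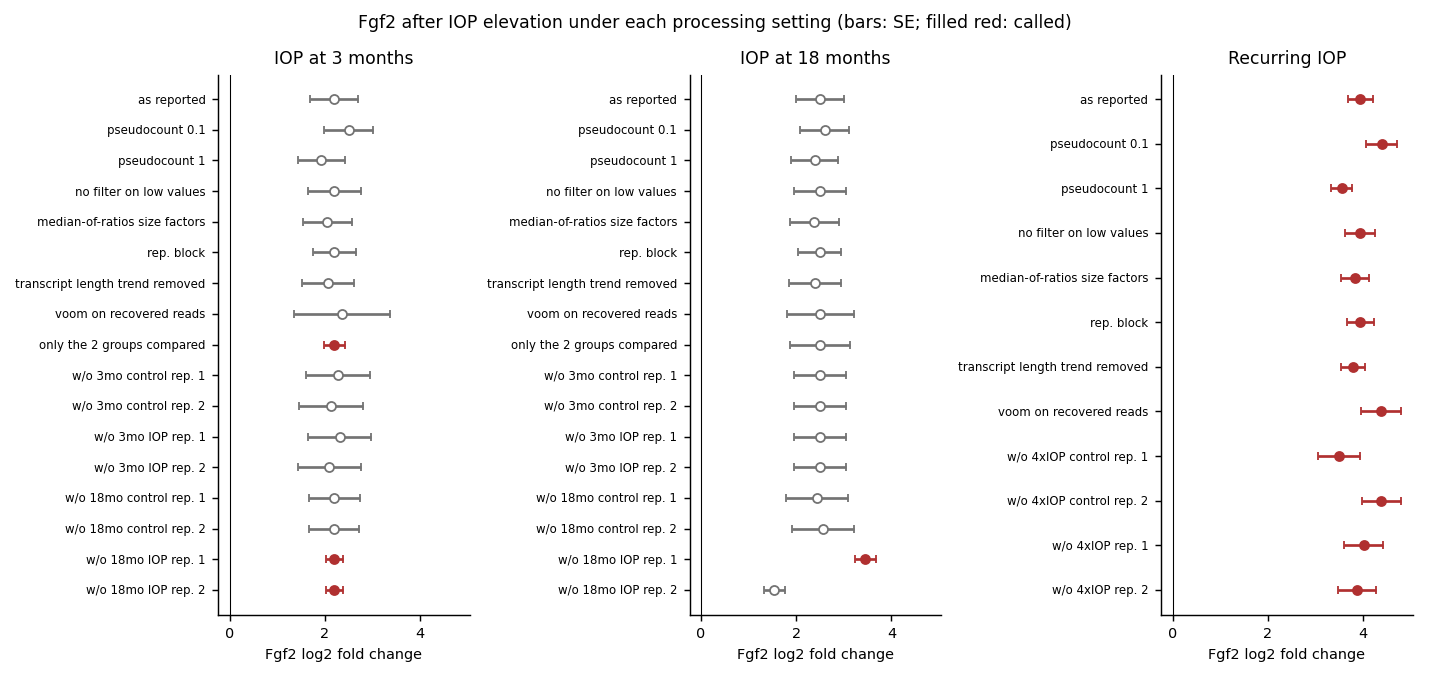
Log2 fold change of Fgf2 with its standard error after a single elevation at 3 and at 18 months and after recurring IOP, as reported and under each alternative, with filled red points where it was called. The change is above 0 at every setting plotted, it is called after recurring IOP in all of them, and at 18 months it moves from 1.54 to 3.45 with the library that is left out.

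No gene of the set was called lower after recurring IOP, where 0.693% of all genes were. In FPKM as deposited both inhibitors had both treated libraries below both controls, 2 of the 8 genes where 12.7% of all genes were. With median-of-ratios scaling Fgf9 joined them, 3 of the 8 where 22.4% of all genes were. Spry2 had 8.11 and 7.77 FPKM in 4xIOP control and 5.24 and 5.60 in 4xIOP, a log2 fold change of -0.51 (SE 0.20, unadjusted p = 0.0241, limma adjusted p = 0.195). With median-of-ratios scaling it was -0.62 (limma adjusted p = 0.0536). Spry4 had 0.924 and 0.913 FPKM against 0.635 and 0.434, a log2 fold change of -0.46 (SE 0.25, limma adjusted p = 0.439), which was -0.91 by voom. After a single elevation Spry2 was at 0.08 at 3 months (-0.11 with median-of-ratios scaling) and 0.16 at 18 months, and Spry4 at 0.29 and 0.13. Whether single and recurring IOP differ in these genes was not tested.

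Among the receptors Fgfr1 had 1.21 and 1.75 FPKM in 4xIOP control and 2.85 and 1.79 in 4xIOP, which do not overlap by a narrow margin (0.50, SE 0.24, limma adjusted p = 0.356). With 1 library left out the change of Fgfr1 was between 0.23 (without 4xIOP replicate 1) and 0.77 (without 4xIOP replicate 2), and it was 0.30 without 4xIOP control replicate 1. With median-of-ratios scaling they overlapped, which left Fgf2 as 1 of the 8 higher, where 22.8% of all genes were. Fgf2 and Fgfr1 were the 2 of the 8 genes higher without overlap, where 27.7% of all genes tested were. Fgfr2 (0.120 and 0.201 against 0.140 and 0.083 FPKM) and Fgfr3 (0.051 and 0.096 against 0.090 and 0.168) overlapped, as did Fgf9 (5.05 and 4.23 against 2.99 and 4.36; log2 fold change -0.31, limma adjusted p = 0.644). Fgf1 had 8.42 and 4.61 FPKM in 4xIOP control and 3.73 and 7.78 in 4xIOP, with its libraries wide apart within each group (-0.19, SE 0.32, limma adjusted p = 0.918). The ganglion cell sums of these 4 libraries stood in the same order within each group, 273 and 151 FPKM in 4xIOP control and 146 and 273 in 4xIOP. Pigment epithelium markers summed to 30.8 to 40.9 FPKM in 4xIOP control and 3.94 to 7.92 in 4xIOP, and the lens marker sum, in which Mip was at 0 in 4xIOP control, to 10.5 to 14.9 and 75.1 to 161.

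The genes whose pattern over the 8 single-IOP libraries was most like that of Fgf2 were found by the smallest root mean square difference of the centred log2 values. They were Lad1 (0.266), an anchoring filament protein, Serping1 (0.345), the inhibitor of the complement protease C1, Gadd45b (0.357), a stress-induced gene, Steap4 (0.364), a metalloreductase, and A2m (0.413), a protease inhibitor of plasma. After a single elevation at 3 months their log2 fold changes were 2.27, 2.55, 2.21, 2.07 and 2.42, and at 18 months 2.04, 2.36, 1.98, 3.40 and 3.22. These values are part of the likeness that chose the genes, and no test is given for them. Steap4 went from 0.108 and 0.107 FPKM in 3mo control to 2.12 and 1.98 in 3mo IOP and to 7.15 and 21.9 in 18mo IOP. A2m, at 32.6 and 111 FPKM in 18mo IOP, shared the excess of replicate 2. The recurring libraries were not used to choose them, and all 5 were called there, with log2 fold changes of 2.73, 4.13, 2.64, 4.99 and 3.83 (limma adjusted p between 1.28e-07 and 1.13e-05), and each was called under the 13 alternatives run there. The share of all genes called higher there was 5.45%. The 5 genes were chosen for a pattern that includes a rise after single IOP. The share called higher among other genes with such a rise was not determined.

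**Figure D4:**
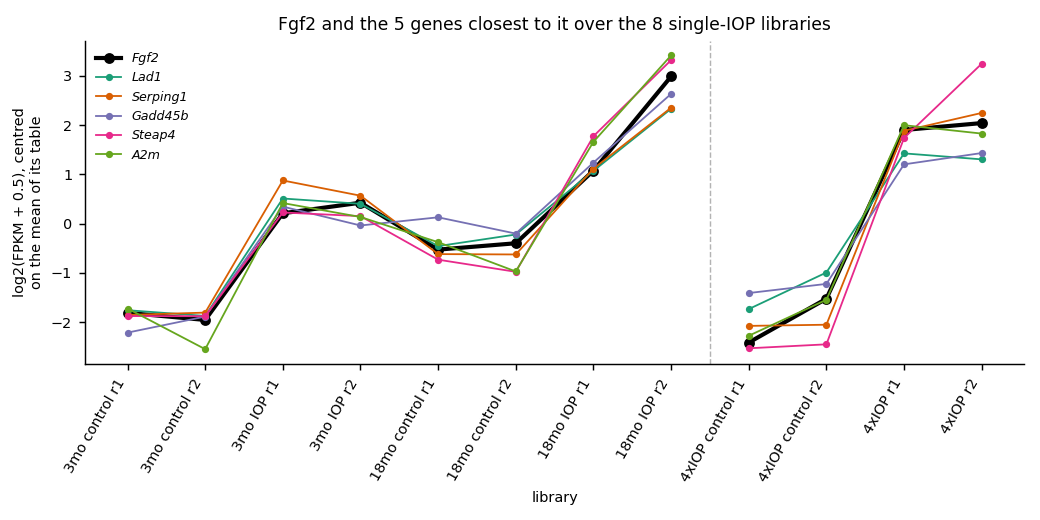
Fgf2 (thick black line) and the 5 genes closest to it, as log2(FPKM + 0.5) centred on the mean of its table, for each of the 12 libraries, with the dashed line between the 2 tables. The genes were chosen on the 8 libraries to its left, and in the 4 to its right, which did not choose them, all 6 are higher in both 4xIOP libraries than in both controls.

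Nudt6, the neighbour transcribed towards Fgf2 and known as its antisense gene, did not overlap the Fgf2 transcript that was counted. It was counted on NM_001291044 in the single-IOP table and on NM_153561 in the recurring table. It had 3.07 and 3.58 FPKM in 3mo control and 9.84 and 9.44 in 3mo IOP, then 3.94 and 2.88 in 18mo control and 5.69 and 10.6 in 18mo IOP. Both treated libraries were above both controls at each age, with log2 fold changes of 1.41 (SE 0.28, limma adjusted p = 0.0901) and 1.10 (0.185). After recurring IOP it went from 0.492 and 0.881 to 2.12 and 3.68 FPKM and was called (1.5, SE 0.26, limma adjusted p = 0.00234), though not without the filter (0.0681) or without 4xIOP replicate 2 (1.16, 0.107). With age in untreated eyes its log2 fold change was 0.02 (limma adjusted p = 0.955), beside 1.42 for Fgf2.

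The rest of the pathway was described by lists of 80 further genes, and the largest difference in them was in Egr1, an immediate early transcription factor induced by the MAP kinase cascade. Egr1 had 1.48 and 1.42 FPKM in 3mo control and 210 and 159 in 18mo control (log2 fold change 6.55, SE 0.33, limma adjusted p = 0.000437), and 4.10 and 2.45 against 144 and 268 in the IOP eyes. In the recurring table it had 2.19 and 1.86 FPKM in controls and 2.43 and 1.47 in 4xIOP (-0.07, limma adjusted p = 0.972). Its high values were those of the 4 18mo libraries, treated and untreated alike.

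Of the 15 feedback inhibitors and targets, 14 were tested in the single-IOP table. With age in untreated eyes 3 were called higher and 0 lower, where 11.6% of all genes were called in each direction (median log2 fold change 0.62 against 0.16 over all genes tested). In IOP eyes 7 were called higher and 1 lower, where 10.2% and 11.6% of all genes were (median 1.01 against 0.09). The voom fit called 4 higher and 1 lower in untreated eyes, and 5 higher and 1 lower in IOP eyes. Dusp6, the ERK phosphatase, had 2.14 and 4.08 FPKM in 3mo control and 10.1 and 7.27 in 18mo control (1.38, limma adjusted p = 0.0162), and in IOP eyes 6.05 and 3.42 at 3 months against 14.7 and 21.2 at 18 months (1.84, 0.00839). Dusp4, a nuclear phosphatase of MAP kinases, went from 6.03 and 3.94 to 11.1 and 16.7 FPKM (1.39, limma adjusted p = 0.00836). In IOP eyes Myc (2.03, limma adjusted p = 0.0237), Spry1 (1.39, 0.00575) and the ETS factor Etv5 (1.35, 0.00642) were called higher at 18 months. With Egr1, Dusp6 and Dusp4 these make 6 of the 7, and the last was Dusp5 (1.07, limma adjusted p = 0.0439). The 1 called lower was Spry3 (-1.01, limma adjusted p = 0.017), a further Sprouty gene. Dusp5 and Spry3 were named after their values were seen. Egr1 was called under the 18 alternatives run in either kind of eye. In untreated eyes the limma call of Dusp6 was lost without 3mo control replicate 1 (0.98) or either 18mo control library (adjusted p = 0.092 and 0.0555), and that of Dusp4 without 18mo control replicate 2 (0.0621). In IOP eyes leaving out 3mo IOP replicate 2 ended each of the calls but that of Egr1, and leaving out 3mo IOP replicate 1 ended those of Dusp4, Myc, Etv5, Dusp5 and Spry3. Myc was at 1.0 without 18mo IOP replicate 2 and at 3.05 without replicate 1, and its call held under 12 of the 18 alternatives. It was not called by voom with or without the filter (limma adjusted p = 0.0512 and 0.0591), by limma without the filter (0.0511) or with only the groups compared (0.0567). Dusp5 ranged from 0.48 to 1.66 without the same libraries, and its call held under 4 of the 18 alternatives. Dusp4 also lost its call without 18mo IOP replicate 1 (0.99), and Spry3 without replicate 2 (-0.93). Spry3 in IOP eyes had 6.80 and 4.79 FPKM at 3 months and 2.76 and 2.41 at 18 months, while Spry1 was called higher and the uncalled Spry2 and Spry4 values were 0.78 and 0.85.

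After a single elevation limma and voom each called 0 of these 14 at either age. In limma 1 had an unadjusted p under 0.05 at 3 months and 5 at 18 months, and the median log2 fold change was 0.05 and 0.295, against 0.14 and 0.09 over all genes. After recurring IOP 0 of 13 were called higher and 1 lower. This was Dusp4, with 8.66 and 9.82 FPKM in 4xIOP control and 3.48 and 4.58 in 4xIOP (-1.11, SE 0.21, limma adjusted p = 0.00412), where 0.693% of all genes were called lower. The call was lost without 4xIOP control replicate 2 (-1.03, limma adjusted p = 0.0786) and without 4xIOP replicate 1 (-0.94, 0.0505). Dusp6 gave 0.51 (limma adjusted p = 0.292) and Spry1 0.21 (0.823), neither of which passed the test.

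Of the 20 heparan sulfate proteoglycans and enzymes, 17 were tested with age. In untreated eyes 3 were called higher and 1 lower, where 11.6% of all genes were in each direction (median 0.57 against 0.16). In IOP eyes 4 were called higher and 0 lower, where 10.2% and 11.6% were (0.63 against 0.09). Sulf2, a sulfatase that edits heparan sulfate outside the cell, went from 3.65 and 2.44 to 9.09 and 13.4 FPKM in untreated eyes (1.72, limma adjusted p = 0.00484). The core protein Agrn (1.25, 0.0146) and the sulfotransferase Hs6st1 (1.09, 0.00767) were higher, and Ext1, a polymerase of the chain, was lower (-1.01, 0.00832). Sulf1 (1.31, 0.00548) and the glypican Gpc4 (1.05, 0.0194) were called in IOP eyes. The age call of Sulf2 held under the 18 alternatives in either kind of eye. In limma without 3mo control replicate 2 the calls of Agrn (0.83), Hs6st1 (0.81) and Ext1 (-0.99) were lost, as they were without 18mo control replicate 2 (adjusted p = 0.1, 0.0538 and 0.0693), and that of Hs6st1 also without replicate 1 (0.0508). Gpc4 was lost without 3mo IOP replicate 2 (0.73) or either 18mo IOP library (limma adjusted p = 0.0544 and 0.0674), and Sulf1 without 3mo IOP replicate 2 (0.0519). The Gpc4 call held under 12 of the 18 alternatives, and also fell under the fold threshold with a pseudocount of 1 (0.87), with median-of-ratios scaling (0.96) and with the length trend removed (0.98). Both sulfatases were also the 2 of 16 called higher after recurring IOP, where 5.45% of all genes were, and 0 were lower (median 0.16 against 0.10). Sulf1 had 7.06 and 9.20 FPKM in 4xIOP control and 21.9 and 34.1 in 4xIOP (1.70, SE 0.27, limma adjusted p = 0.000984), and Sulf2 had 4.01 and 5.29 against 11.7 and 8.28 (1.02, SE 0.23, 0.0142). The Sulf2 call held under 5 of the 13 alternatives, and was lost by voom (0.98, limma adjusted p = 0.109), with median-of-ratios scaling (0.91) and without 4xIOP control replicate 1 (0.84), 4xIOP replicate 1 (0.78) or 4xIOP replicate 2 (0.0525). Sulf1 was lost without 4xIOP control replicate 1 (1.52, limma adjusted p = 0.0641). By voom 1 of the 16 was called higher there. After a single elevation limma and voom each called 0 of 17 at either age (3 and 6 with an unadjusted limma p under 0.05, median 0.27 and 0.22).

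**Figure D5:**
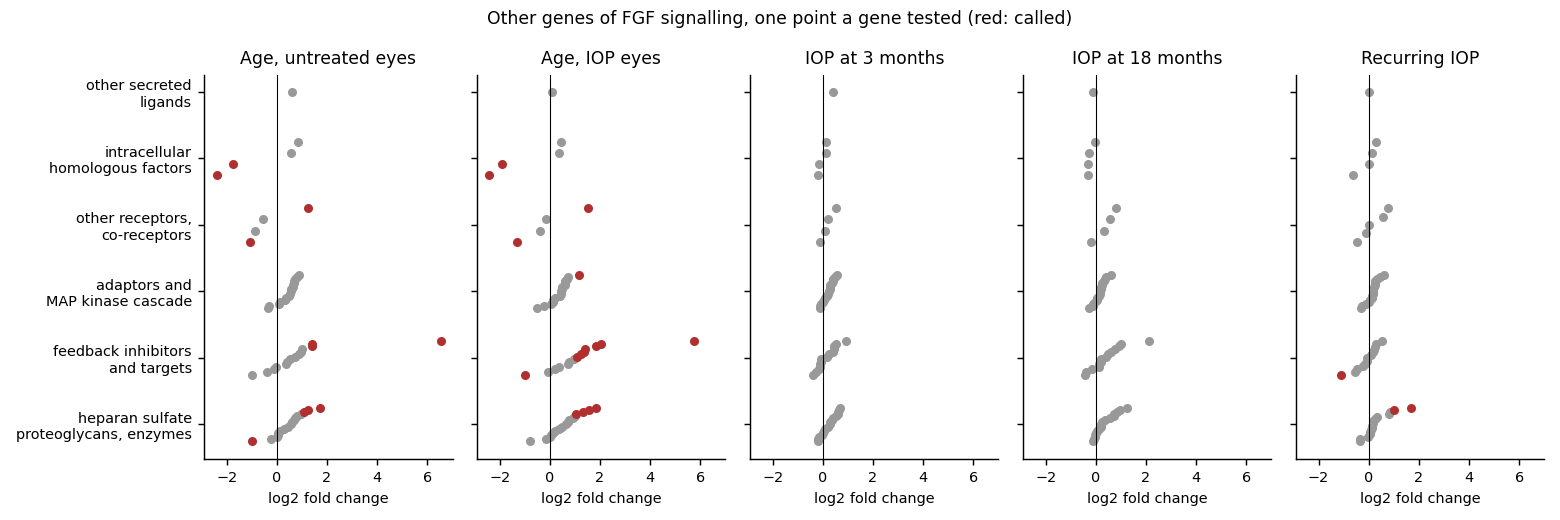
Fitted log2 fold change of each tested gene of the 6 pathway lists, with 1 panel per comparison, 1 point per gene spread vertically within its list for sight only, and red points for called genes. The rightmost point with age is Egr1 at 6.55 and 5.74, and the only red points after recurring IOP are Sulf1, Sulf2 and Dusp4.

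Intracellular FGF homologous factors, which bind sodium channels and do not act on the receptors, split with age. Of the 4, Fgf12 and Fgf14 were called lower in untreated eyes (-2.38, limma adjusted p = 0.0136, and -1.76, 0.0281) and in IOP eyes (-2.44 and -1.90), and the other 2 were not called. Over all genes 11.6% were called lower in each. In untreated eyes Fgf12 lost its call without 3mo control replicate 2 or 18mo control replicate 1 (limma adjusted p = 0.0767 and 0.0769), and Fgf14 without any 1 of the 4 libraries compared (0.0589 to 0.146). In IOP eyes both lost it without either 3mo IOP library, and without 18mo IOP replicate 1 and replicate 2 in turn Fgf12 was at -3.43 and -1.45, and Fgf14 at -2.79 and -1.01, the last not called. Fgf12 had 13.4 and 18.1 FPKM in 3mo control and 1.84 and 3.56 in 18mo control, and its 18mo IOP libraries had 4.56 and 0.785, an order shared by Fgf1 and by the ganglion cell marker sum. Among 9 other receptors and co-receptors, 4 were tested with age. Fgfrl1, a receptor without a kinase domain, was called higher (1.26, limma adjusted p = 0.00602, in untreated and 1.53 in IOP eyes), where 11.6% and 10.2% of all genes were, and Flrt3, a membrane partner of FGF receptors, was called lower (-1.06, 0.0102, and -1.32), where 11.6% were in each. The median of the 4 was -0.71 in untreated and -0.29 in IOP eyes, against 0.16 and 0.09 over all genes. The Flrt3 call was lost without either 18mo control library in untreated eyes (limma adjusted p = 0.0578 and 0.0635), and in IOP eyes without either 3mo IOP library (0.0548 and 0.0533) or without 18mo IOP replicate 2 (-1.0). Neither list had a call by limma or voom after single or recurring IOP, where the homologous factors had 0, 0 and 1 genes with an unadjusted limma p under 0.05 at 3 months, at 18 months and after recurring IOP, and the receptors 1, 1 and 3.

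The 17 adaptors and kinases of the cascade were all tested, and limma and voom each called 0 with age in untreated eyes, where limma called 23.2% of all genes (11 with an unadjusted limma p under 0.05, median 0.55 against 0.16 over all genes). In IOP eyes 1 was called higher, where 10.2% of all genes were, the adaptor Gab1 (2.69 and 2.66 FPKM in 3mo IOP against 6.08 and 7.37 in 18mo IOP; 1.18, limma adjusted p = 0.00543), and 0 were called by either fit in any IOP comparison (4, 2 and 2 with an unadjusted limma p under 0.05 at 3 months, at 18 months and after recurring IOP). Of the 15 other secreted ligands only Fgf22 passed the filter on low values in both tables, between 0.093 and 0.811 FPKM, and neither fit called it in any comparison (0 with an unadjusted p under 0.05).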

How the data were processed

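Poly(A) RNA of whole mouse retinas was sequenced in 12 libraries, 2 per group, and the deposited values are FPKM, which the authors made by aligning reads to mm10 with STAR (2.7.8a in the submitters' processing notes) and counting uniquely mapped tags in exons on 1 strand with HOMER, 1 isoform per locus. The single-IOP and recurring tables were normalized separately and were fitted separately. The low values were whole multiples of 1 read for 100% of the values checked (within the rounding of the file plus 0.01 read), which gave the tags per library (39766239 to 59455064) and the reads per gene. The precision of a value follows from its reads, and the reads cover counting error only.

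Values entered as log2(FPKM + 0.5) for every gene whose mean reached 0.5 FPKM in its table, and were tested with limma 3.58.1 (R 4.3.3), with a trend in the moderated variance, group means without a replicate block, and Benjamini-Hochberg adjustment over all genes tested. Calls needed an adjusted p up to 0.05 and a change of 1 or more on the log2 scale (for the interaction, p alone). The single-IOP fit used all 8 libraries. Summaries and figures were made in Python 3.11.15. The fitting code was tested on simulated data. Alternatives were other pseudocounts, no filter, median-of-ratios scaling, a replicate block, removal of the transcript length trend, the compared groups alone, each library left out, and limma voom on the recovered reads. The crossed pairing, voom without the filter and the rescaled counts of groups that do not overlap were chosen after seeing the data.

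The 8 genes and all gene lists were chosen with earlier results of these data known. Beyond the 8 genes, the text names called genes of the pathway lists (up to 6 per list, by size of change), the 5 genes most like Fgf2 and its antisense neighbour Nudt6. Promoters came from RefSeq (GRCm38.p6), which held 5 of the 8 genes.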

Additional observations from a re-analysis of the deposited data

How the results depend on the processing

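The number of the 6 tested genes that were called with age in untreated eyes went from 4 to 2 with a pseudocount of 1, to 2 with median-of-ratios scaling and to 2 with the length trend removed, and lay between 1 and 4 with 1 library left out (1 without either 18mo control library, 2 without 3mo control replicate 2). With age in IOP eyes it was 3 and lay between 1 (without 3mo IOP replicate 2) and 4 (without 18mo IOP replicate 1). After a single elevation at 3 months it went from 0 to 1 when only the groups compared were fitted, and lay between 0 and 1 with 1 library left out, as it did at 18 months. It stayed at 0 for the interaction and at 1 (Fgf2) for recurring IOP under the alternatives run. Same-numbered libraries of treated and control groups did not deviate together (correlations of their deviations -0.275 at 3 months, -0.53 at 18 months and -0.29 in the recurring table). With 2 libraries per group these correlations cannot decide whether equal numbers mark the same animal. The labels do not say so either, and the numbers were not taken to pair the samples. The replicate block left 4, 3, 0, 0, 0 and 1 of the genes called, and over all genes it gave 3133, 2942, 53, 0, 0 and 864 calls for age in untreated eyes, age in IOP eyes, IOP at 3 months, IOP at 18 months, the interaction and recurring IOP. The main counts were 3185, 3000, 79, 17, 0 and 843, and the crossed pairing of replicate numbers gave 3210, 3016, 66, 0, 0 and 894. Voom on the recovered reads gave 3587, 3532, 3, 0, 0 and 776. Over all genes the calls for IOP at 3 months were 10 with median-of-ratios scaling, 9 without the filter and 120 with the length trend removed, and those at 18 months were 0, 1 and 41. With 1 library left out they lay between 0 and 257 at 3 months, 0 and 144 at 18 months, 1176 and 4717 for age in untreated eyes, and 722 and 3016 for age in IOP eyes. Median-of-ratios scaling moved the median of all genes with age in untreated eyes from 0.157 to 0.01 and the share of calls that were higher from 50.1% to 35.0% (46.9% to 38.4% in IOP eyes).

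Values that changed sign all belonged to comparisons in which the gene was not called. For IOP at 3 months Spry2 was -0.11 with median-of-ratios scaling, -0.11 by voom and -0.13 by voom without the filter, and Fgf1 was -0.08, -0.09 and -0.1 in the same order. For IOP at 18 months Fgf9 was -0.01, -0.01 and -0.02. For age in IOP eyes Fgf9 was -0.14 with the length trend removed. The cause was not tested. With 1 library left out, log2 fold changes crossed 0 for Fgf9 with age (-0.16 to 0.02 in untreated and -0.03 to 0.32 in IOP eyes), for Spry2 (-0.12 to 0.27) and Fgf1 (-0.04 to 0.25) at 3 months, and for Spry2 (-0.07 to 0.39), Fgf9 (-0.08 to 0.27) and Fgf1 (-0.77 to 0.22) at 18 months. They also crossed 0 for the interaction of Fgfr1 (-0.07 to 0.52), Spry2 (-0.15 to 0.32), Spry4 (-0.33 to 0.02), Fgf2 (-0.66 to 1.25) and Fgf1 (-0.88 to 0.11), and for Fgf1 after recurring IOP (-0.67 to 0.29).

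Of the other values of the 8 genes, 296 kept their direction and their side of the threshold, 5 came to pass it and 13 no longer passed it, and with 1 library left out these were 227, 4 and 15. For the other named genes 381 values stayed on their side and 60 no longer passed, and with 1 library left out 261 stayed, 3 came to pass and 100 no longer passed, with none reversed. Leaving out a library of the recurring table leaves 1 residual degree of freedom, and in either table the lone library of a group is then assumed to vary like those of the other groups. Depth limits Fgfr2, with 5 to 17 reads in the 18-month libraries, and Fgf2, with 17 to 46 reads in the 3mo and 4xIOP controls.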
